A study of Mus musculus with 4 samples.

Results

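The regions described here are 514 peaks of HA-tagged human WDR5 (HA-hWDR5) in mouse embryoid bodies. Each was called in the chromatin immunoprecipitation (ChIP-seq) library of the T12h rescue, overlapped no peak called at T48h, and had its summit within 1 kb of an end of an annotated gene. The members were chosen by measured values, namely the peak calls at both times and the summit position at T12h, so their height and their lack of a T48h call are given as a description. They are 42.9% of the 1197 peaks of the T12h list, and 73.7% of the 697 T12h peaks at gene ends. Over the whole T12h list, 972 peaks (81.2%) overlapped no T48h peak. The T12h and T48h lists together hold 1857 peaks, 660 of them from T48h.

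Both groups were embryoid bodies at day 6, grown by the SFEBq method (aggregates of stem cells in suspension that can form retinal tissue) in medium with 5% KSR, with 2% Matrigel from day 1. The stem cells carried a GFP knock-in at Rx, lacked mouse Wdr5 and held a doxycycline-inducible HA-hWDR5. Doxycycline was given at T12h in the first group and at T48h in the second. What event the 12 and 48 hours count from is not given in the labels. The peaks therefore report a tagged human protein in cells without their own Wdr5. Each time had 1 anti-HA ChIP library and 1 input library, so no value below has a replicate error and no difference between times or peak sets was tested. After removal of duplicates, 55539917 ChIP tags remained at T12h and 67116740 at T48h, with 54011542 and 61209779 tags in the inputs.

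WDR5 is a small protein built of WD40 repeats that form a ring with binding surfaces on opposite sides. It is a core subunit of the MLL/SET1 complexes, which methylate histone H3 at lysine 4 near active gene starts, and it also occurs in the NSL acetyltransferase complex and in a Polycomb complex with PCGF6, MGA and E2F6 called PRC1.6. PRC1.6 reaches DNA through E2F6 with its DP partner, which read E2F sites, and through MGA with MAX, which read E-boxes, and it is known for silencing germline genes in stem cells. WDR5 is also known to meet MYC at promoters, many of them of ribosomal protein genes.

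The promoters under the summits often held an E-box, CACGTG, or an E2F-type sequence, TTCCCGC or GGCGGGA. The examples were chosen after the values were seen, as high-ranked cases with the sequence near the summit. They come from the RefSeq promoter sequences of GRCm38.p6, the build called mm10, and lie before the gene start listed there. Each reads 5′ to 3′ in the direction of transcription, with E-box and E2F letters in capitals. Where a stretch lies inside the annotated span of a gene, 30 bases around the sequence are shown. The first 7 hold an E-box, and the peaks over Tesmin and 1700112D23Rik have both sequences within 30 bases.
Dpy19l2, chr9:24696327-24696356, minus strand: cgggctgggctgCACGTGgacagcgcaaga
Prxl2a, chr14:41013844-41013873, minus strand: gggcgtgtctgtCACGTGaaagtggcgtgg
Ptprs, chr17:56476554-56476583, minus strand: aggctcctgaagCACGTGacccagcagcgc
Rbm46, chr3:82876500-82876529, minus strand: gtggggccactcCACGTGaggcacgctagg
Bcl7b, chr5:135168196-135168256, plus strand: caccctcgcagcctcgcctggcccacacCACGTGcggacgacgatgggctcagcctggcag
Tesmin, chr19:3389236-3389265, plus strand: cgccTCCCGCCtacagcgtgCACGTGttat
1700112D23Rik, chr3:28781153-28781182, minus strand: ccgaggTCCCGCCccgtCACGTGaagctcg
Zfp280d, chr9:72274793-72274822, plus strand: cctcccgcgttGGCGGGAAgactgggagcg
Rbmxl1, chr8:78508681-78508710, minus strand: cgggctgggccTTCCCGCCaggtcggtggc
Smc1b, chr15:85131972-85132032, minus strand: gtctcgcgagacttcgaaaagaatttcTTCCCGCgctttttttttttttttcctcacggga
Spop, chr11:95413833-95413891, plus strand: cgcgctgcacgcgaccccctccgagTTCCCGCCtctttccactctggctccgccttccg
Ugp2, chr11:21371356-21371416, minus strand: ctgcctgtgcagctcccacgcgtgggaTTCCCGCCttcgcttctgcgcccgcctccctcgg

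Most of the 514 peaks were narrow and of modest height. Their fold, which is the ratio of ChIP tags to the local background as the authors' peak caller MACS estimated it, had a median of 7.07 and ran from 2.79 to 19.26, with the middle 50% of peaks between 5.95 and 8.25. The median width was 342 bp, with a range of 107 to 4316 bp, and the median tag count was 33, with a range of 12 to 1090. The score, which is -10 times the log10 of the MACS p-value, had a median of 78.3 and ran from 50.01 to 740.86, just above the score of 50 that the calling cutoff of 1e-05 sets. The false discovery rate that MACS gave was at most 5% for 376 peaks (73.2%).

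The 183 T12h peaks at gene ends that overlapped a T48h peak were taller, with a median fold of 15.71, a median width of 780 bp and a median of 136 tags. Folds of 10 or more were seen at 141 of those (77.0%) and at 45 of the T12h-only peaks (8.75%), and folds of 20 or more at 78 and at 0. The 458 T12h-only peaks away from gene ends had a median fold of 6.79 and a median width of 291.5 bp, and the 70 T48h-only peaks at gene ends a median fold of 6.28. Membership depends on the calling cutoff at both times, so these heights describe the choice of members. A region with no T48h peak is one without a T48h call, and its T48h signal was not analysed here.

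Within the T12h list the members filled the middle ranks. They made up 25 of the first 200 peaks by score, 113 of the next 200, and 130 (65.0%) of ranks 401 to 600. Below that they were 94, 92 and 60 in successive bands, the last of which holds 197 peaks. The shared peaks at gene ends went the other way, with 134 in the first 200 and 8 in ranks 401 to 600. A single T12h-only peak at a gene end, that of Dpy19l2, was among the 100 highest-scoring T12h peaks.

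**Figure D1:**
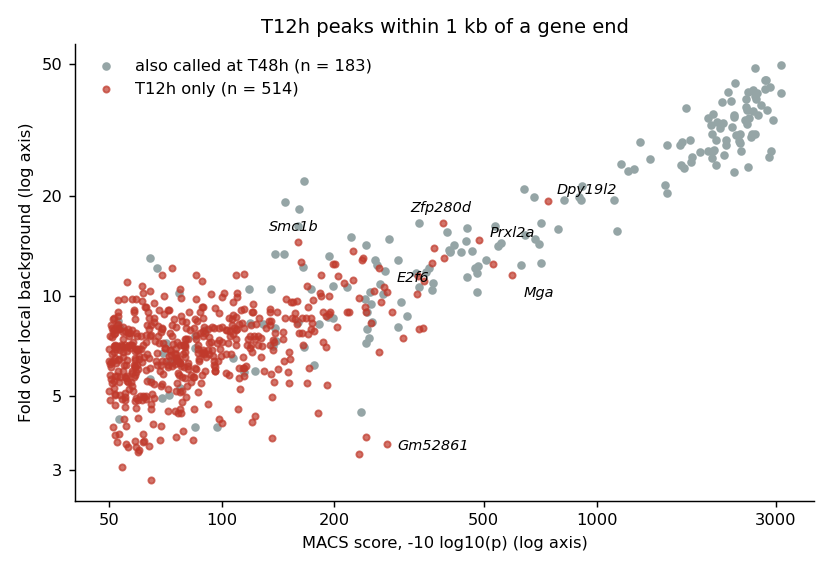
Each point is 1 T12h peak with its summit within 1 kb of a gene end, placed by its MACS score (x, -10 log10 of the p-value, log axis) and its fold over local background (y, log axis). The T12h-only peaks (red, n = 514) lie at scores of 50.01 to 740.86 and folds of at most 19.26, and the peaks also called at T48h (grey, n = 183) reach a fold of 49.69.

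Among the members, the highest score and fold belonged to the peak at the start of Dpy19l2, which encodes a protein of the sperm head. The peak covered chr9:24695783-24696507, held 133 tags (95% Poisson interval 111 to 158) and had a score of 740.86 and a fold of 19.26, and its summit was 11 bp before the RefSeq start. The second by score lay at Mga, which encodes the DNA-binding partner of MAX in PRC1.6, at chr2:119872494-119873675. It held 154 tags (131 to 180) with a fold of 11.55, and its summit was 733 bp from the outer end of the annotated gene and 23992 bp before the start in the promoter table. Poisson intervals cover counting error alone.

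The third lay near the opposite-strand starts of Fam229b and Tube1, which encodes epsilon-tubulin, with 132 tags and a fold of 12.45. Prxl2a, a peroxiredoxin-like gene, followed with 107 tags and a fold of 14.72. E2f6, the gene of the E2F subunit of PRC1.6, had 97 tags (78.7 to 118) and a fold of 12.97 at chr12:16810719-16811429, with the summit 217 bp inside the gene. Genes of both DNA-binding arms of PRC1.6 were thus among the 5 highest-scoring members.

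The zinc finger genes Zfp280d (82 tags, fold 16.56) and Zfp105 (87 tags, fold 13.98) came next. They were followed by the shared start region of Morc2a, a chromatin ATPase gene, and the noncoding RNA gene Tug1 (88 tags, fold 12.59). Akap11, an anchor of protein kinase A, had a fold of 11.06, the Kelch gene Kbtbd6 one of 8.0, the microtubule gene Map10 one of 7.94 and the Eph receptor gene Ephb1 one of 11.45. A peak on chromosome 8 near the leucine tRNA genes n-TLcag4 and n-TLcag5 had a fold of 10.14 with 100 tags. A further 6 members of the first 25 were the peaks at Rnf227 (fold 7.48), Gm10190 (8.93), Rsf1os2 with Clns1a (10.3), Gm13233 (6.77), 4930432K21Rik with Cc2d1a (8.28) and Inip (8.93), a subunit of a single-strand DNA-binding complex. Gm10910 had a fold of 10.66. Hdac2, Dnajb3 and the heat shock pair Hspa1a and Hspa1l were also among the first 25, with folds of 9.62, 12.14 and 10.37.

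Among the 10 highest folds were 5 more genes with lower scores. Smc1b, the meiotic cohesin subunit gene, shares its start region with Ribc2 and had 37 tags and a fold of 14.52. Azin2, an antizyme inhibitor gene, had a fold of 13.61, Zcwpw1, which encodes a histone reader of meiotic recombination sites, one of 12.99, the nucleosome-binding gene Hmgn1 one of 12.81 and the ubiquitin ligase gene Obi1 one of 12.65. Smc1b thus had the fourth highest fold among the members on 37 tags (26.1 to 51.0).

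High tag counts marked a different kind of member. The peaks with the most tags lay at Gm20584 (1090 tags over 3882 bp, fold 4.17), Gm52861 (972 tags over 4316 bp, fold 3.57), Gm40364 (844 tags, fold 3.34) and the 4.5S RNA gene Rn4.5s (843 tags, fold 3.75). The next were Gm10060 with 730 tags, LOC100504180 with 566, the 5S rRNA pseudogene Rn5s-ps1 with 411, Erdr1 with 324, Pisd-ps2 with 292 and Gm13034 with 268. Their folds lay between 2.79, at LOC100504180, and 5.45, at Pisd-ps2. The members with the most tags were thus wide regions of low fold, and none of these 10 was among the 10 highest folds.

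The summits gathered at gene starts. The rule took either end of a gene, so which end was free to vary. Of 365 peaks whose nearest end could be told from the strand in the RefSeq promoter table, 340 lay nearest a start and 25 nearest the other end (93.2% at starts, exact binomial 95% interval 90.1 to 95.5). Ends here are those of the annotated gene span, so a start inside a span was not counted. Of the 25, the Bola1 peak lay 604 bp from the far end but 399 bp from a Bola1 start. The Zfp628 peak lay 609 bp from the far end but 26 bp from a start of Nat14. For 149 peaks the table used gives no strand. Binomial intervals here cover counting error alone, and neighbouring genes can share a peak. The shared peaks had 129 of 131 nearest a start (98.5%, 94.6 to 99.8) and the T48h-only peaks 32 of 39 (82.1%, 66.5 to 92.5).

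The median summit lay 269.5 bp from the nearest end, with a range of 1 to 998 bp. For the 351 peaks with a start of the promoter table within 1 kb, the median summit was 43 bp downstream of it (95% interval 21 to 76), and the middle 50% ran from 152 bp before the start to 222 bp inside the gene. The 134 shared peaks were centred further inside, at 145.5 bp (96 to 182). Between 50 and 350 bp inside the gene lay 117 T12h-only summits (33.3%) and 82 shared ones (61.2%). Downstream of the start lay 208 T12h-only summits (59.3%, 53.9 to 64.4) and 96 shared ones (71.6%, 63.2 to 79.1).

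**Figure D2:**
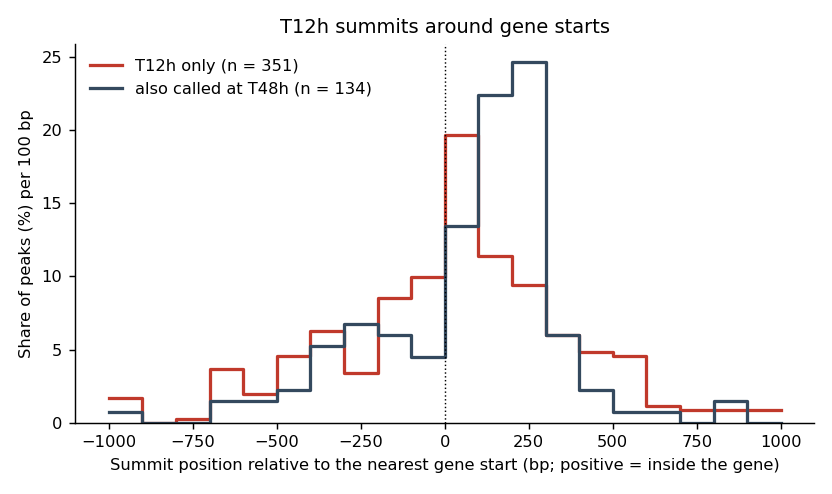
The share of peaks (y, percent per 100 bp) is plotted by the summit's distance from the nearest gene start (x, bp, positive inside the gene), for T12h-only peaks (red, n = 351) and T12h peaks also called at T48h (blue, n = 134). The T12h-only summits spread around a median of 43 bp, and the shared ones peak further inside the gene, with a median of 145.5 bp.

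Some of these peaks lay near starts on both strands. Of 354 peaks with a gene start within 1 kb of the summit, 79 had starts on both strands there (22.3%, 18.1 to 27.0). Among the shared peaks it was 23 of 135 (17.0%, 11.1 to 24.5). Of the 26994 gene starts in the promoter table, 13.9% have an opposite-strand start within 1 kb. That share is counted per start and measured from the start, so it is not a like measure. Whether the paired starts point away from each other was not checked. Apart from Fam229b with Tube1 and Morc2a with Tug1, such pairs included Pms2, a mismatch repair gene, with Aimp2, a scaffold gene of tRNA synthetases, at a fold of 7.28. The RNA helicase gene Ddx25 and the pseudouridine synthase gene Pus3 shared a peak with a fold of 10.01, and Tex14, which encodes a protein of intercellular bridges in germ cells, shared one with the recombination gene Rad51c at a fold of 7.83. The interval for the shared peaks overlaps that of the T12h-only peaks.

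The 514 peaks touched 630 genes, 131 of the peaks more than 1 gene and 6 of them 3 genes. Protein-coding genes numbered 457, which is 2.09% of the 21883 annotated, and this is the background for the gene lists below. Long noncoding RNA genes numbered 96 (0.754% of 12727). Ribosomal RNA genes numbered 15 of 63 (23.8%), where 630 of all 49939 annotated genes had a member peak. The 13 peaks nearest to ribosomal RNA genes had a median fold of 3.67, and many lay in the 5S cluster on chromosome 8 described below. Peaks shared with T48h lay at the ends of 187 protein-coding genes (0.855% of all) and T48h-only peaks at those of 46 (0.21%). Of the 457 genes with a T12h-only peak, 2 also had a shared one, Angptl6 and H2-DMa, and 1, Gm3373, also had a T48h-only one. At the shares over all genes about 4 and 1 would be found, so both counts lie near the background.

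The lists of PRC1.6 subunits, germline genes and zinc finger genes were prompted by peaks already seen in these data, so their shares partly reflect that choice. PRC1.6 had the largest share of its genes among the 27 lists. Of 16 subunit genes, 5 had a T12h-only peak (31.3%, against 2.09% of all protein-coding genes), with a median fold of 9.82 against 7.07 for all members. They were Mga and E2f6 with the values above, the histone deacetylase gene Hdac2 (69 tags, fold 9.62), Rybp (42 tags, fold 9.82), which encodes a RING1 partner, and Tfdp1 (41 tags, fold 4.55), the DP partner of E2F proteins. The summits of Mga, E2f6 and Hdac2 ranked 101, 130 and 177 in the T12h list. Hdac2 also works in other repressor complexes.

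The core Polycomb list had 4 of 30 genes (13.3%), with a median fold of 9.39. They were Cbx6, a chromodomain reader of H3K27 methylation (fold 10.24), Ezh2, the methyltransferase that places it (9.92), its partner Aebp2 (8.85) and Suz12, the scaffold subunit (6.34). The Ezh2 summit lay 38 bp from the gene end, and the peak held 28 tags. The list of WDR5 complexes, with the MLL/SET1 and NSL subunits, had 1 of 37 (2.70%), the NSL gene Phf20 with a fold of 7.94. Wdr5 itself, Rax and Trp53 had no T12h peak within 1 kb of an end.

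Germline genes, a list also prompted by peaks already seen, had 7 of 42 (16.7%) with a median fold of 7.83. Besides Smc1b, Zcwpw1 and Tex14 they were Syce2, a synaptonemal complex gene (fold 8.24), Mei1, needed for meiotic recombination (7.65), Tdrkh, a piRNA pathway gene (7.14), and Dazl, an RNA-binding regulator of germ cells (6.39). The genes with sequences shown above include others with known testis roles, Dpy19l2 and Tesmin (fold 10.2), but these were outside the list. The MYC network list had 1 of 13 genes, Mga.

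Heat shock and chaperone genes had 4 of 34 (11.8%), with a median fold of 6.77. Hspa1a, the inducible HSP70 gene, had 97 tags and a fold of 10.37, the chaperonin gene Cct2 a fold of 7.88, Hsph1 one of 5.65 and the HSP40 gene Dnajb1 one of 4.95. A further 3 genes of that list had a shared peak. At the HSP70 gene Hspa1b lay a peak shared with T48h, with a fold of 13.74. The T48h peak nearest to the Hspa1a member was 12169 bp away. Hspa1a and Hspa1b are both HSP70 genes, and whether reads were divided between them was not tested.

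Genes of DNA replication and repair had 8 of 115 (6.96%), with a median fold of 7.47. They included Pms2, the Fanconi anemia genes Fanci (8.57), Fancf (7.9) and Fancl (5.43), Rad50 of the MRN complex (5.76), Tipin of the fork protection complex (7.66) and the ubiquitin ligase gene Rad18 (4.87). Rad51c is the eighth and is counted through the peak it shares with Tex14. Tags at these peaks ran from 16 to 65.

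Other chromatin regulators had 8 of 153 (5.23%), with a median fold of 7.60. After Morc2a the highest folds were those of Smarcad1, a nucleosome remodeler gene (10.18), Ing2, a reader of H3K4 methylation (8.05), Setd2, the H3K36 methyltransferase (7.76), and the H3K9 demethylase gene Kdm3a (7.44). Carm1 and Prmt3, which encode arginine methyltransferases, had folds of 6.68 and 6.75, and Uhrf2 one of 6.11. Zinc finger genes had 22 of 469 (4.69%) in 20 peaks, with a median fold of 6.84. Zfp280d and Zfp105 stood well above the rest of that list, which ran from 4.72 at Zfp709 to 9.09 at Zfp438, and 9 other zinc finger genes had a shared peak.

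Lists of RNA and protein production had shares of 3.20% to 5.36%, beside the background of 2.09%, except for cytosolic ribosomal proteins. Each of these shares rests on 3 or 4 genes, so they are not read as differences from the background. The same holds for the core Polycomb and heat shock shares, which rest on 4 genes each. Translation factors had 3 of 56 (5.36%): Eif4a2 (fold 5.46), Eif6 (6.87) and Eif4ebp1 (4.25). Splicing factors had 4 of 80 (5.00%), Hnrnpk with 8.78, Hnrnpa3 with 7.28, Prpf39 with 7.24 and Srsf3 with 5.25. Enzymes of tRNA had 3 of 68 (4.41%), among them Pus3 and Rpp25 (9.29), and mitochondrial ribosomal proteins 3 of 78 (3.85%), led by Mrps15 with 7.11. Ribosome biogenesis genes had 3 of 90 (3.33%), Ddx52 (7.57), Taf1d (6.41) and Rrp1b (6.16), and the list of RNA polymerases and general transcription 4 of 125 (3.20%). In the last were Gtf3c3, a subunit of TFIIIC, with a summit 1 bp from its start and a fold of 10.2, the Integrator genes Ints5 (8.08) and Ints3 (7.74), and the Mediator gene Med26 (4.25). Cytosolic ribosomal proteins had 0 of 91, whereas 44 of these 91 genes had a peak shared with T48h. The rule keeps peaks shared with T48h out of the members, so the 0 and the 44 are not independent.

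Ubiquitin and proteasome genes had 6 of 141 (4.26%), among them the conjugating enzyme gene Ube2q1 (fold 7.73) and 5 deubiquitinase genes, Usp53 (8.01), Usp10 (6.78), Usp36 (6.58), Usp5 (6.38) and Usp28 (4.58). Centrosome and cilium genes had 3 of 96 (3.13%), Cep290 of the ciliary transition zone (7.76), Pcm1 of the centriolar satellites (7.07) and Tmem231 (5.56). Nuclear pore and transport genes had 2 of 60, the small GTPase gene Ran (7.2) and Nup205 (4.7), and the respiratory chain 2 of 77, Ndufa13 (7.1) and Atp5g2 (7.03). Histone genes had 1 of 101, H2bc14 (7.02).

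Developmental lists had counts near the background. Neural and eye field genes had 1 of 36, Nes, the intermediate filament gene of neural progenitors (fold 8.37). Mesoderm and endoderm genes had 1 of 26, Mesp2 (7.14), a factor of somite formation. Pluripotency genes had 0 of 25, p53 targets 0 of 25, cell cycle and mitosis genes 0 of 63, and olfactory and vomeronasal receptors 0 of 1465. For lists of 25 to 63 genes the background of 2.09% comes to about 1 gene, so a count of 0 or 1 there is what the background brings. The receptor list, which is much longer, lay under it.

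**Figure D3:**
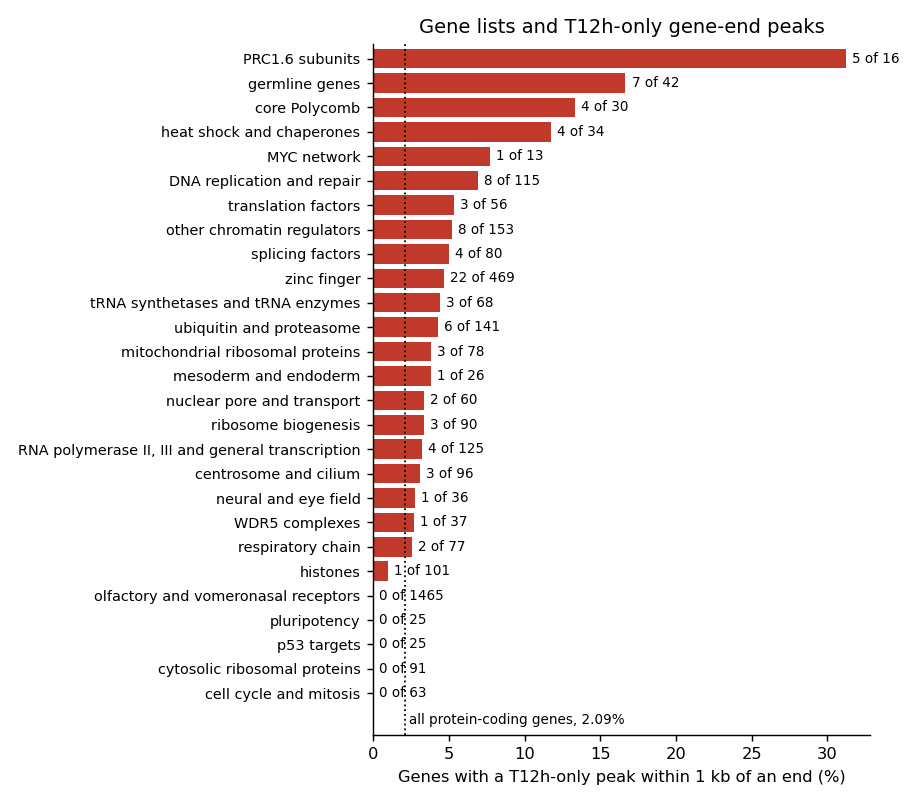
Bars give the percent of the measured genes of each list with a T12h-only peak within 1 kb of an end, with the counts beside them and a dotted line at the 2.09% of all protein-coding genes. PRC1.6 subunits (5 of 16), germline genes (7 of 42), core Polycomb (4 of 30) and heat shock genes (4 of 34) have the largest shares. The PRC1.6, germline and zinc finger lists were prompted by peaks already seen in these data. The core Polycomb and heat shock shares rest on 4 genes each.

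The E-box and E2F letters were searched on both strands in the RefSeq promoter windows, which run from 250 bases before to 50 after a gene start. The summit of 104 member peaks lay inside such a window, and 455 of the 630 genes had a window at all. In the windows with a summit, CACGTG occurred in 26 of 104 (25%, 17.0 to 34.4), against 7.15% of all 32817 windows. In the wider set of 455 it occurred in 78 (17.1%, 13.8 to 20.9). Member windows were rich in CpG, with a median of 26 CpG dinucleotides where the summit fell and 7 over all windows. When all windows were weighted to the CpG counts of the member windows, the E-box share was 11.1%, below the interval of the 104.

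E2F letters occurred in 42 of the 104 windows (40.4%, 30.9 to 50.5), against 13.3% of all windows. Weighted to the same CpG counts, all windows held them at 30.2%, just under the lower bound of that interval. In the 455 windows the share was 32.1% (27.8 to 36.6) against 27.3% at matched CpG and 13.3% over all windows. The difference from all windows was thus far larger than the difference from windows of like CpG content. Both sequences occurred together in 13 of the 104 windows (12.5%) and in 454 of all windows (1.38%), and at least 1 of them in 55 of the 104 (52.9%) and in 19.1% of all windows. These shares were not matched for CpG content. Of the 21 windows with a shared summit, 3 (14.3%) held both and 9 (42.9%) at least 1. An E2F match and an E-box can share 1 base, and GGCGGGA can share bases with the SP/KLF letters named below.

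A longer form, AGCACGTG, was looked at after the sequences had been seen. It occurred in 8 of the 104 windows (7.69%, 3.38 to 14.6), in 0.905% of all windows and in 1.33% at matched CpG. Of the 21 windows with a shared summit, 2 held it (9.52%, 1.17 to 30.4). Every AGCACGTG is also counted as CACGTG. For the ETS, NFY and TATA letters the share at matched CpG lay inside the interval of the 104. The ETS letters CCGGAAG occurred in 21.2% of the 104 windows against 18% at matched CpG (8.86% of all windows), and the NFY letters CCAAT in 31.7% against 33.9% (37.4%). The SP/KLF letters GGGGCGGGG went the other way, with 12.5% (6.83 to 20.4) against 26.7% (11.4% of all windows). The TATA letters TATAAA occurred in 8 of the 104 windows (7.69%) against 4.82% at matched CpG (13.6% of all windows). Rarer sequences occurred in 0 to 5 of the 104 windows. The CRE letters TGACGTCA and the T-box letters GGTGTGA, which the T-domain of MGA reads, were each in 5 (4.81%), against 1.79% and 3.98% of all windows and 3.48% and 2.90% at matched CpG. The palindromic NRF1 sequence was in 4 (3.85%), against 0.966% of all windows and 2.32% at matched CpG. The YY1 and ZNF143 sequences were in 2 each (1.92%), against 0.841% and 0.286% of all windows and 2.01% and 0.391% at matched CpG. The Kaiso sequence was in 1, the promoter of Smc1b shown above, and the RFX core letters GTTGCCA in 1, which is 0.962% in each case, against 0.466% and 4.38% of all windows and 1.20% and 3.60% at matched CpG. The polypyrimidine letters TTTCTTTCC, called TOP, were in 0 of the 104, where 1.15% of all windows and 0.572% at matched CpG held them. For each of these rarer sequences the share at matched CpG lay inside the interval of the 104. The 21 windows with a shared summit held CACGTG in 6 (28.6%, 11.3 to 52.2) and E2F letters in 6, and those intervals are too wide to set the sets apart.

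**Figure D4:**
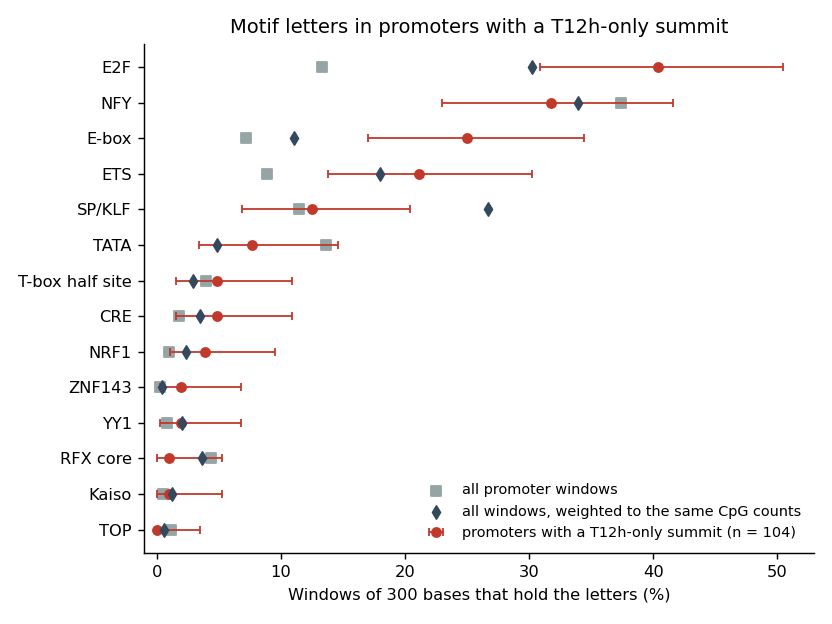
Red points give the percent of 104 promoter windows with a T12h-only summit that hold each sequence, with exact binomial 95% intervals, beside all 32817 windows (grey squares) and all windows weighted to the same CpG counts (blue diamonds). The E-box (25% against 7.15% and 11.1%) and E2F (40.4% against 13.3% and 30.2%) intervals lie above both references, and that of SP/KLF lies below the weighted one.

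E-boxes lay close to the summits. Of 32 E-box sites in the 104 windows, 20 (62.5%) had their centre within 50 bp of the summit, at a median distance of 36 bp, while 30.4% of the window bases lay that near. For E2F sites it was 24 of 57 (42.1%, median 65 bp), for ETS 7 of 28 (25%), for NFY 7 of 43 (16.3%) and for SP/KLF 2 of 18 (11.1%). The 21 windows with a shared summit had 4 of 7 E-box sites (57.1%) that near, and the difference between the sets was not tested. In the sequences printed above, the E-box centre lay 37.5 bp upstream of the summit at Dpy19l2, 25.5 bp upstream at Tesmin and 10.5 bp upstream at 1700112D23Rik. The E2F centre lay 1.5 bp from the summit at Spop and 9.5 bp upstream of it at Ugp2. The E-box of Prxl2a was further away, 69.5 bp upstream.

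**Figure D5:**
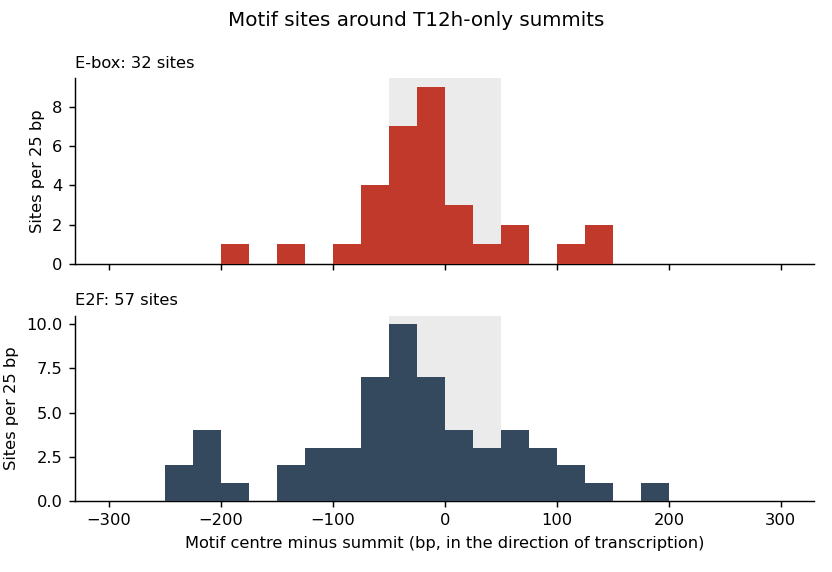
Histograms count motif sites per 25 bp (y) by the distance of the motif centre from the peak summit (x, bp in the direction of transcription), for E-boxes (upper, 32 sites) and E2F sites (lower, 57 sites), with grey marking 50 bp on each side. In the upper panel 20 of 32 sites fall in the grey band and in the lower 24 of 57.

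The share of E-boxes did not follow peak height. In 3 groups of 117 peaks each by score, the promoters of the nearest starts held CACGTG in 20.5%, 17.1% and 18.8%, from the highest scores to the lowest, and E2F letters in 40.2%, 38.5% and 29.1%. The intervals of the 3 groups overlapped for both sequences. Of the list genes with a member peak and a window, 3 of 7 germline promoters held at least 1 of these sequences (Tex14, Smc1b and Syce2). So did 2 of 4 PRC1.6 promoters (Tfdp1 and Hdac2) and 2 of 4 core Polycomb promoters (Suz12 and Cbx6). At least 1 of them occurred in 42.0% of the 455 member gene windows and in 19.1% of all windows. These small counts thus lie near the share of all member windows. The windows of E2f6 and Mga held neither, which says only that these letters are not in those windows. Neither window held the summit, which lay 217 bp inside the gene at E2f6 and 23992 bp before the start at Mga. The window of Mei1, counted among the 7 germline promoters, also held neither sequence and lay far from its summit. Among the genes whose windows held either sequence, the summits of Tfdp1, Hdac2, Suz12, Cbx6 and Syce2 also lay outside the windows. They were at -493, -500, -523, 317 and 181 bp from the start, positive inside the gene. The windows of all these genes therefore do not describe the sequence under their summits.

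The members were unevenly spread over the chromosomes. Chromosome 8 held 74, against 24.5 for its share of the protein-coding genes (ratio 3.02), with a median fold of 5.32. Chromosome 14 held 38 against 19.97 (1.90), while chromosome X held 6 against 22.7 (0.264) and Y held 0. On the other chromosomes the ratio lay between 0.603 and 1.24. The labels do not give the sex or karyotype of the cells, and the part of copy number in these counts was not tested.

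A part of this came from clusters. Windows of 1 Mb with at least 6 T12h peaks numbered 10 and held 53 members, of which 25 lay on chromosome 8 and 23 on chromosome 14. Those 53 had a median fold of 5.26 and a median width of 614 bp, and 24 (45.3%) were nearest a protein-coding gene. The other 461 had a median fold of 7.14 and a median width of 328 bp, and 351 (76.1%) were nearest a protein-coding gene. The cluster with the most members, chromosome 8 from 123 to 124 Mb, held 15 at 5S rRNA genes and Cdk10, with a median fold of 3.76. Chromosome 6 from 47 to 48 Mb held more T12h peaks, 23 against 17, but 5 members, with a median fold of 3.75. Those were the peaks at Rn4.5s, Gm40364, Gm52861 and Zfp783 and the one at F830010H11Rik and Ezh2. On chromosome 14 the clusters between 3 and 8 Mb lay at families of closely related Gm genes, where reads may be divided among near-identical copies, so the values there are uncertain. The same caution holds for the repeated 5S rRNA genes on chromosome 8. Whether it holds for the wide peaks at Rn4.5s, Gm40364 and Gm52861 on chromosome 6 (4197, 4230 and 4316 bp) was not tested. Outside the dense windows chromosome 8 still held 49 members, at genes such as Map10, Piezo1 (fold 9.29) and Rbmxl1 (8.8).

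The limits of the rule ran through like peaks. Just inside 1 kb lay the peaks of Gm6249 (986 bp, fold 8.18), Chchd6 (986 bp, 7.14) and n-TEctc8 (998 bp, 3.81), and just outside it those of Gm9495 (1011 bp, 4.33), n-TEctc7 (1013 bp, 5.51) and Tardbp (1026 bp, 7.0). The T48h peak came nearest without overlap at Gm52861 (11 bp), H2-DMa (26 bp) and Angptl6 (55 bp), with folds of 3.57, 6.9 and 9.49. The H2-DMa member had its summit 110 bp from the end of that gene and 97 bp inside a start of Brd2. It lay beside the shared T12h peak at H2-DMa, which had a fold of 49.69. Overlaps of 2, 27 and 55 bp left out the peaks at Dap3 (6.99), Kbtbd7 (8.33) and Dpy19l3 (8.03). Such close cases were few. A T48h peak lay within 1 kb of 7 members, within 10 kb of 24 and within 100 kb of 75, while 263 were more than 1 Mb from any, and the median gap was 1024839 bp.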

How the data were processed

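Peaks were called separately at each time, from 1 ChIP library and its control, with MACS 1.4.2 at a p cutoff of 1e-05, per the file headers. MACS kept 1 tag per position, used a band width of 300 bp and an effective genome size of 2.70e+09, and scaled the larger dataset towards the smaller, per the file headers. The submitters' processing notes also name the build mm10, HOMER 4.9.1, deepTools, SAMtools 1.5 and Bowtie2. The authors deposited a tag count per peak, not normalised, a score (-10 log10 of the p-value), a fold (a ratio of tags to local background) and a false discovery rate in percent. The signal tracks and reads were not analysed here.

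Summits were placed at start + summit - 1 and compared with 49939 genes of GRCm38.p6, of which 21883 are protein-coding. Strand and start came from a RefSeq promoter table of 27025 genes, which has none on chromosome 18. CpG-matched shares weight all windows over 8 bands of CpG count. A list gene is counted when a member summit lies within 1 kb of its end. With 1 library per group no test was made, the planned descriptions were used, and exact binomial and Poisson 95% intervals stand in for errors. The work used pandas 2.3.3, numpy 2.4.6, scipy 1.17.1 and matplotlib 3.10.9 under Python 3.11.15, and the scripts were tested on simulated data.

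The text names the 25 highest-scoring members, the 10 with the highest fold and the 10 with the most tags, up to 6 genes of each list, the peaks at each limit of the rule, and always E2f6, Mga, Wdr5, Rax and Trp53. Other genes, among them those shown for their sequences, the last named of lists with more than 6 (Tex14, Rad51c, Rad18, Setd2, Prmt3) and Zfp709 and Zfp438, were chosen after their values were seen. A result that this rule covers is not reported here. Members and lists were chosen with earlier results of these data known. Alternatives covered the overlap, distance, gene type, score, false discovery rate, dense windows, chromosome 8, the summit and the promoter windows.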

Additional observations from a re-analysis of the deposited data

How the results depend on the processing

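Across 54 recomputed values, 40 stayed inside the interval of the reported value or, for counts, within 1.5 times of it, 14 moved further and 0 reversed. Within that tolerance, the 514 peaks and 457 protein-coding genes became 394 and 342 with a limit of 500 bp, and 686 and 675 with 5 kb. With a limit of 500 bp, the median distance to a gene end was 196.5 bp and the share at starts 97.1%, and with 5 kb they were 390.0 bp and 84.1%, as the limit itself sets the range. Counting protein-coding genes alone, the share at starts was 96.1%. The upper 50% of the T12h list by score held 266 members with a median fold of 7.66 at 253 protein-coding genes. The median fold was 7.36 at a false discovery rate of at most 5% and 7.27 without chromosome 8, and the causes were not tested. The E-box share over that of all windows, 2.40 for the 455 gene windows, was 3.50 for the 104 windows with a summit and 1.63 at matched CpG. For E2F the same ratio was 2.41, 3.04 and 1.18. No paired analysis was possible because the groups share fewer than 2 replicate numbers, with 1 library in each. Depth limits the weakest members, which rest on 12 to 24 tags in the lowest 25%, and a gene with no T48h call may hold signal under the cutoff.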

Other observations

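The T48h-only peaks at gene ends, set beside the T12h-only ones, included Mycn, a MYC family gene (170 tags, fold 9.15), and Six6, an eye field factor gene (57 tags, fold 17.03). They were 70 peaks at 88 genes, 46 of them protein-coding, with a median false discovery rate of 12.4% against 2.90% for the 514 T12h-only peaks. Histone genes had 4 of 101 there, against 0.21% of all protein-coding genes, and 1 of 101 among the T12h-only peaks, against 2.09%.

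Some T12h-only peaks lay at gene ends of other kinds. Of those nearest a gene's far end, the peaks at Gm10910 (fold 10.66) and 1700003F12Rik (9.05) were among the tallest. Small RNA genes included Mir6953 beside Grina (8.93) and Mir8109, which had 2 separate member peaks beside Neto2 with folds of 6.96 and 5.76. The imprinted antisense gene Gnasas1 had a fold of 8.6 with 53 tags. These were chosen after their values were seen.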
